A study of Mus musculus with 5 samples.

Results

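The collagens outside cartilage are the genes that encode collagen chains other than the chains typical of cartilage matrix. They were taken by symbol (Col, a type number, a and a chain number) from a table of 19699 gene entries, leaving out Col2a1, Col9a1, Col9a2, Col9a3, Col11a1 and Col11a2, which gave 38 of 44 collagen entries. The RNA came from the main airway section of mouse embryos of C57 stock at E13.5, a piece that held trachea and lung. The 2 mutant libraries (MU) came from embryos in which Prmt5, the gene of an arginine methyltransferase, was removed from lung epithelial cells. The labels call this genotype a Prmt5 knockdown, the design text writes it with Shh beside Prmt5, and the promoter that drove the deletion is not spelled out. The 3 control libraries (WT) came from littermates labelled WT. The labels name epithelial cells as the site of the deletion, whereas the piece also holds mesenchyme and vessels. How many embryos went into a library is not stated, so a p-value covers only library-to-library spread, part of which may be technical.

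Collagens are secreted proteins of 3 chains wound into a triple helix. Fibrillar collagens, made mainly by fibroblasts and other mesenchymal cells, line up into the fibres that give tissue its tensile strength. Type IV collagens form the sheet-like network of basement membranes, on which epithelium and endothelium rest and around which the lung branches. Other collagens decorate fibrils, form microfibrils, anchor basement membranes or stay in the cell membrane.

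The libraries held 15756526 and 15652503 reads in MU 1 and 2, and 18682463, 16305922 and 18219269 reads in WT 1, 2 and 3. Values are given as FPKM, fragments scaled to gene length and to the fragments of a library. FPKM is per length, so levels of different genes can be set side by side. Prmt5 itself was at 23.7 and 20.1 FPKM in MU against 28.7, 26.4 and 25.8 FPKM in WT, lower in both mutants. Xist, expressed from the inactive X of females, was at 0.0673 and 0.289 FPKM in MU against 57.3, 58.1 and 115 FPKM in WT. Sex make-up and genotype therefore cannot be told apart in full. All 8 epithelial and all 8 mesenchymal marker genes were detected, summing to 284 and 285 FPKM (epithelium) and 345 and 284 FPKM (mesenchyme) in MU, against 261 to 710 FPKM and 184 to 241 FPKM in WT. Of 8 cartilage markers, 6 were found in the table and 2 reached the level tested.

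Collagen RNA was abundant in every library. The 38 genes took 1.80% and 1.49% of the reads in MU against 1.91%, 1.84% and 2.36% in WT. Both mutants lay below all 3 controls. Col1a1, Col1a2 and Col3a1 alone made up 63.7% and 64.3% of the summed collagen FPKM in MU against 65.4%, 67.2% and 69.0% in WT. In whole tissue, fewer cells of a type and less RNA per cell cannot be told apart.

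Of the 38 genes, 29 reached 1 FPKM in at least 2 libraries and were tested with limma on log2(FPKM + 1), with Benjamini-Hochberg adjustment across all 12838 genes that reached this level. Past an adjusted p of 0.05 were 2 of the 29, Col12a1 and Col8a2. Both fell in MU, and 0 rose. Over all genes tested 2.36% passed, 0.989% higher and 1.37% lower. That is 127 genes higher and 176 lower, against 133 higher and 117 lower with quantile normalization. FPKM of the groups did not overlap for 15 of the 29, 10 lower and 5 higher in MU, against 37.6% of all genes tested, 24.4% lower and 13.2% higher. Col4a4 and Col8a1 reached the minimum only through 1 group and so had to differ. The median log2 change of the 29 was -0.27, against -0.06 over all genes tested, and 22 of 29 lay below 0, against 61.1% of all genes. MU 2 was the lowest of the 5 libraries for 20 of the 29 genes, against 41.1% of all genes tested, and WT 3 was the highest for 12 of 29, against 25.9%.

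**Figure D1:**
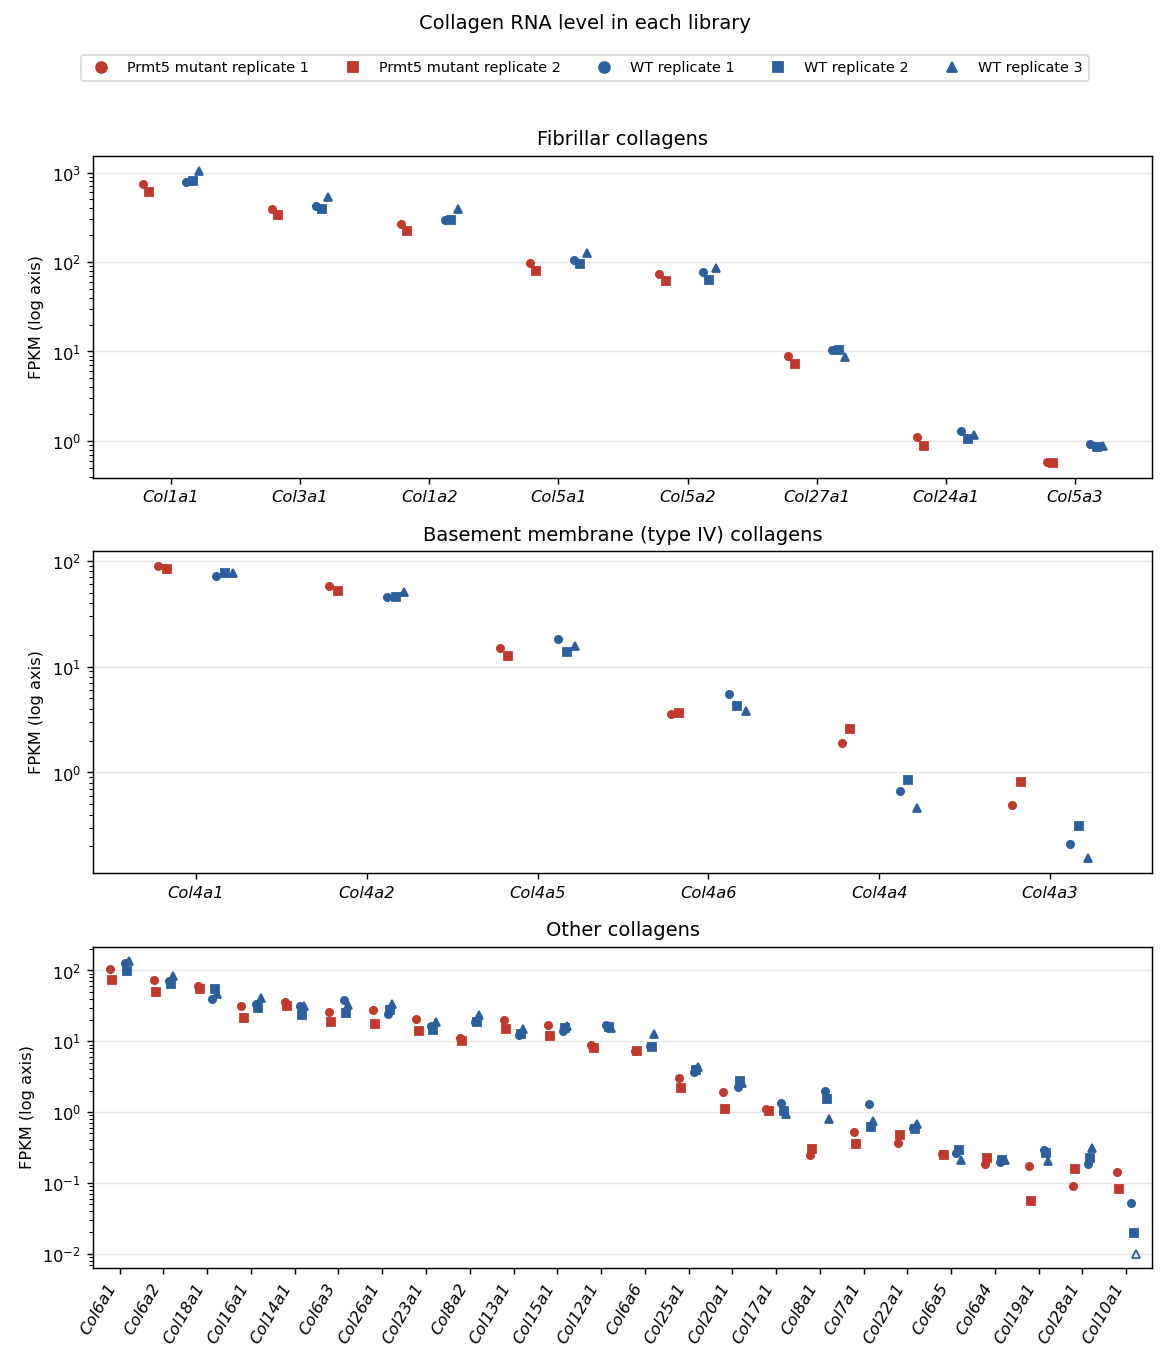
FPKM (log axis) of each of the 38 collagens in the 2 Prmt5 mutant (red) and 3 WT (blue) libraries, 1 symbol per library, ordered by mean level within each class. Levels run from 1048 FPKM for Col1a1 in WT 3 to 0 for Col10a1 in WT 3, drawn as an open symbol at 0.01.

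Fibrillar collagens were the most abundant class and lay somewhat lower in MU without passing the test. Of 8 genes, 7 were tested and 0 passed. Their log2 changes ran from -0.42 to -0.11 with a median of -0.30, which was -0.16 without MU 2 and -0.12 with the share of male RNA, estimated from Y-linked genes, as a covariate. In all 7 the lowest library was MU 2, and in 5 of 7 the highest was WT 3. This share, the summed FPKM of 4 Y-linked genes relative to the highest library, was 1 and 0.86 in MU against 0.73, 0.598 and 0.142 in WT. WT 3 was thus also the library with the least. The share is a rough measure of sex make-up, since Xist was near 0 in both mutants (0.0673 and 0.289 FPKM) though their shares differed. Of the 8 mesenchymal markers, 2 were called higher in MU and 0 lower, against 0.989% and 1.37% of all genes tested. The 2 were Tbx4 and Wnt2, at log2 changes of 1.02 and 1.45. In all, 7 of the 8 lay above 0, though Pdgfrb and Meox2 only just (0.08 and 0.07), and Pdgfra lay below 0 (-0.30). Whether the amount of mesenchyme differed was not tested.

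Col1a1 encodes the main chain of type I collagen, the principal collagen of bone, tendon and connective tissue (chromosome 11, 94936224 to 94953042, GRCm38). It was at 749 and 610 FPKM in MU against 790, 809 and 1048 FPKM in WT, and the groups did not overlap. The log2 change was -0.37 (SE 0.18, limma adjusted p = 0.309). Its partner chain Col1a2 (chromosome 6, 4504814 to 4541544) was at 265 and 223 FPKM in MU against 296, 295 and 395 FPKM in WT. Again both mutants lay below all controls, at a log2 change of -0.42 (SE 0.17, limma adjusted p = 0.23). Col3a1, which forms type III collagen of elastic and vascular tissue (chromosome 1, 45311538 to 45349706), was at 388 and 334 FPKM in MU against 424, 394 and 527 FPKM in WT. Here MU 1 and WT 2 nearly met, and the log2 change was -0.30 (SE 0.16, limma adjusted p = 0.36). For all 3 genes the controls spread widely, with WT 3 highest.

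Type V collagen sits inside type I fibrils and sets their diameter. Its chain Col5a1 was at 96.3 and 79.1 FPKM in MU against 104, 96.2 and 125 FPKM in WT. Col5a2 was at 72.9 and 62.1 FPKM in MU against 77.0, 62.3 and 86.5 FPKM in WT. For both chains MU 1 lay above WT 2, so the groups overlapped. The third type V chain, Col5a3, was low and not tested, at 0.587 and 0.563 FPKM in MU (123 reads) against 0.920, 0.865 and 0.871 FPKM in WT (321 reads). Its mutants lay below all controls with little spread inside either group, and with no filter on low values its adjusted p was 0.276. Col27a1 and Col24a1, fibrillar collagens best known from cartilage and bone, had log2 changes of -0.24 and -0.11 (limma adjusted p = 0.39 and 0.796).

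Type IV collagens divided by chain. Col4a1 and Col4a2, which form the network found in nearly all basement membranes, lay slightly higher in MU. Col4a3 and Col4a4, chains of the network of mature kidney filter and alveolar basement membranes, were low and lay higher in MU. Of these, Col4a3 was not tested and Col4a4 supports no call. The X-linked Col4a5 and Col4a6 lay slightly lower in MU. Of 6 genes, 5 were tested and 0 passed. Their median log2 change was 0.20, with a range of -0.25 to 0.96. The highest value was that of Col4a4, which reached the minimum only through MU and so had to differ. The other 4 lay on both sides of 0, Col4a1 and Col4a2 at 0.20 and 0.22, Col4a5 and Col4a6 at -0.18 and -0.25. The median of 0.20 thus depends on counting Col4a4 and does not place the class higher in MU. Without MU 1 the median was -0.04 and without MU 2 it was 0.09, each over the 4 genes left once Col4a4 no longer reached the minimum.

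Col4a1 (chromosome 8, 11198423 to 11312826, minus strand) was at 89.1 and 83.8 FPKM in MU against 71.7, 76.9 and 76.2 FPKM in WT. Col4a2 (chromosome 8, 11312805 to 11449287, plus strand) was at 57.4 and 52.2 FPKM in MU against 45.2, 45.2 and 50.5 FPKM in WT. For both, the mutants lay above all controls, by 15.3% and 16.7% in the means. The log2 changes were 0.20 (SE 0.10) and 0.22 (SE 0.11), each with a limma adjusted p = 0.335. Both genes are read outward from 1 shared start region, where the annotated genes overlap by 22 bases.

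Col4a4 (chromosome 1, 82448423 to 82586849, minus strand) was at 1.88 and 2.60 FPKM in MU (315 and 432 reads) against 0.671, 0.85 and 0.460 FPKM in WT (133, 147 and 89 reads). The mutant mean was 3.40 times the control mean, and no control came near a mutant. The log2 change on log2(FPKM + 1), a scale that understates changes of low genes, was 0.96 (SE 0.20), which missed the threshold (limma adjusted p = 0.0562). With voom, limma's model for counts, on reads recovered from the FPKM steps the log2 change was 1.80. Because Col4a4 reached the minimum level in MU only, its test values describe a gene that had to differ and support no call. Of the other collagens tested voom called Col12a1 and Col8a2, and Col8a1, which reached the minimum in WT only, and it called 4.7% of all genes, so its count is read no further. Over the 11 alternatives in which Col4a4 was tested, its adjusted p ran from 0.00594 to 0.369, the highest with the male share as a covariate.

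Its neighbour Col4a3 (chromosome 1, 82586921 to 82722059, plus strand) was too low to be tested, at 0.490 and 0.808 FPKM in MU (77 and 126 reads) against 0.209, 0.314 and 0.154 FPKM in WT (39, 51 and 28 reads). With no filter on low values its log2 change was 0.42 (limma adjusted p = 0.214). Col4a3 ranked the 5 libraries in the same order as Col4a4, with MU 2 highest and WT 3 lowest. The exons of Col4a3 share 563 bases with an opposite-strand transcript, C430014B12Rik, whose reads cannot be told apart here. Together the 2 chains made up 1.42% and 2.19% of the summed type IV FPKM in MU against 0.623%, 0.824% and 0.418% in WT.

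Col4a5 and Col4a6 lie back to back on the X chromosome, with 1308 bases between their annotated starts. Col4a5 was at 15.0 and 12.7 FPKM in MU against 18.1, 13.7 and 15.7 FPKM in WT, with overlap, at a log2 change of -0.18 (SE 0.14, limma adjusted p = 0.567). Col4a6 was at 3.56 and 3.62 FPKM in MU against 5.46, 4.22 and 3.82 FPKM in WT, with both mutants lowest, at a log2 change of -0.25 (SE 0.16, limma adjusted p = 0.452). Xist, on the same chromosome, differed between the groups as given above. With the share of male RNA as a covariate the log2 changes were -0.27 for Col4a5 and -0.50 for Col4a6 (limma adjusted p = 0.816 and 0.507).

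The start regions of Col4a1 with Col4a2 and of Col4a3 with Col4a4 are shown because the genes of each pair start close together on opposite strands. Capitals mark a GC box (GGGCGG or its reverse complement), searched on both strands together with the CCAAT box (CCAAT) and the TATA box (TATAAA). Both sequences are the plus strand of GRCm38.p6 from RefSeq promoter windows, chr8:11312777-11312854 and chr1:82586830-82586940. The first is the stretch common to the windows of both genes, and the second is the 71 bases between the annotated genes with 20 bases on each side.
Col4a1 (leftward) and Col4a2 (rightward): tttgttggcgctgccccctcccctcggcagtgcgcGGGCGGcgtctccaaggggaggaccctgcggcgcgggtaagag
Col4a4 (leftward) and Col4a3 (rightward): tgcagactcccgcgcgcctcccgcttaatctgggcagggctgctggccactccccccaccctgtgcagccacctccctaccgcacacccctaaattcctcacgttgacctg
The first stretch holds 1 GC box and the second holds none of the 3 motifs. RefSeq promoter windows of 300 bases were found for 31 of the 38 collagens, 33 windows in all. A GC box was in 60.6% of them, against 35.7% of 32851 windows of all genes, a CCAAT box in 33.3% against 37.4%, and a TATA box in 12.1% against 13.6%. These matches describe letters only.

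Among collagens next to the basement membrane, Col18a1, the source of the fragment endostatin, was at 60.7 and 55.3 FPKM in MU against 39.3, 54.0 and 46.1 FPKM in WT. Both mutants lay above all controls, narrowly for MU 2, at a log2 change of 0.32 (SE 0.15, limma adjusted p = 0.289). Col15a1, a related collagen of vessel and muscle basement membranes, had a log2 change of -0.09 (SE 0.16). Col7a1, which forms the anchoring fibrils of stratified epithelia, was at 0.524 and 0.360 FPKM in MU against 1.29, 0.614 and 0.758 FPKM in WT and was too low to be tested.

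**Figure D2:**
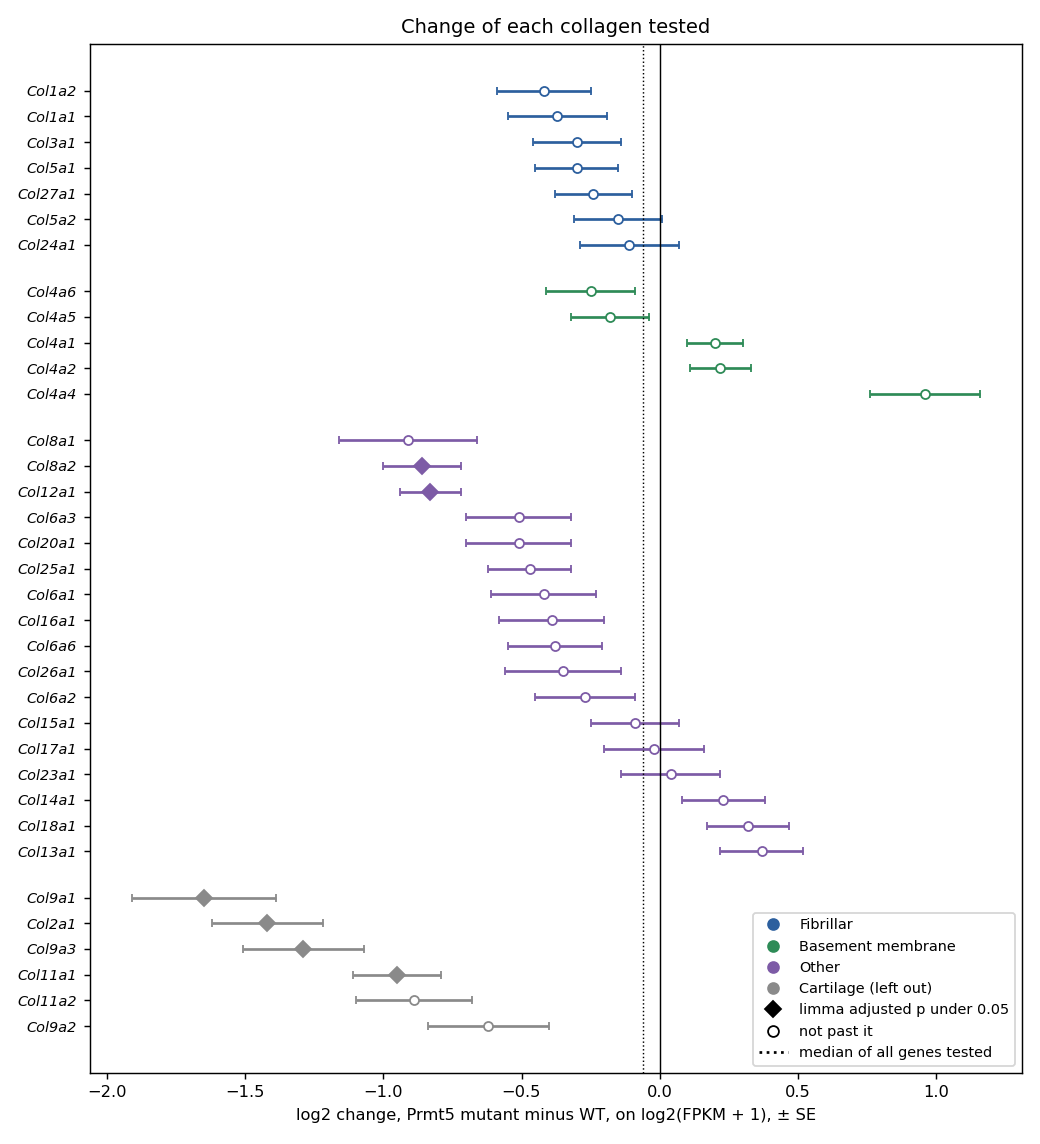
Log2 change (Prmt5 mutant minus WT, on log2(FPKM + 1)) with its standard error for the 29 collagens tested and for the 6 cartilage collagens left out, from 2 mutant and 3 WT libraries. Filled diamonds passed a limma adjusted p of 0.05: Col12a1 and Col8a2 among the collagens outside cartilage, and 4 of the 6 cartilage collagens.

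Col12a1 fell in MU. It encodes type XII collagen, a fibril-associated collagen of tendon, muscle sheaths and other dense connective tissue (chromosome 9, 79598991 to 79718831, minus strand). It was at 8.95 and 8.14 FPKM in MU (2147 and 1940 reads) against 16.9, 15.8 and 15.2 FPKM in WT (4802, 3914 and 4230 reads). The mutants stood near each other and far below the controls, with means of 8.54 ± 0.572 (SD, n = 2) and 16.0 ± 0.834 FPKM (SD, n = 3), 46.5% lower. The log2 change was -0.83 (SE 0.11, limma adjusted p = 0.0159). The call was lost without MU 1 or MU 2 (adjusted p = 0.0912 and 0.15), when all genes were tested whatever their level (0.0522) and when the share of male RNA was a covariate (0.0817), at log2 changes of -0.93 to -0.77.

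Col8a2 fell in MU as well. It encodes a chain of type VIII collagen, a short-chain collagen that forms hexagonal networks in the cornea and in vessel walls (chromosome 4, 126286793 to 126314330, plus strand). It was at 11.3 and 10.1 FPKM in MU (802 and 713 reads) against 18.6, 18.8 and 23.6 FPKM in WT (1562, 1379 and 1933 reads). The groups did not overlap, with means of 10.7 ± 0.842 (SD, n = 2) in MU and 20.4 ± 2.83 FPKM (SD, n = 3) in WT, 47.3% lower at a log2 change of -0.86 (SE 0.14, limma adjusted p = 0.029). The call was lost without MU 1 or MU 2 (adjusted p = 0.118 and 0.236), with all genes tested (0.103) and with the male covariate (0.233), at log2 changes of -0.93 to -0.63.

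Col8a1, the other type VIII chain, was at 0.248 and 0.300 FPKM in MU (20 and 24 reads) against 2.01, 1.52 and 0.806 FPKM in WT (192, 127 and 75 reads). The mutant mean was 0.190 times that of the controls, which themselves spread widely. The log2 change was -0.91 (SE 0.25, limma adjusted p = 0.11), and with voom -2.28, in a range of adjusted p of 0.0482 to 0.454 over 11 alternatives. Col8a1 reached the minimum level in WT only, so these values too describe a gene that had to differ and support no call.

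Markers of several tissues moved between the groups beside Col12a1 and Col8a2. Of 8 skeletal muscle markers, 7 were found and 5 tested, of which 4 were called lower, and the list summed to 5.92 and 13.2 FPKM in MU against 58.7 to 95.5 FPKM in WT. Of 7 smooth muscle markers, 6 were tested and 1 was called lower, summing to 200 and 161 FPKM in MU against 272 to 428 FPKM in WT. Of 6 bone and tendon markers, 3 were tested and 0 were called, summing to 13.2 and 11.1 FPKM in MU against 11.4 to 20.0 FPKM in WT. Of 7 markers of neurons and neural crest 2 were called lower, and of 8 endothelial and 7 macrophage markers 0 were called. The 7 mesothelial markers lay the other way as a sum, at 87.6 and 121 FPKM in MU against 35.9 to 69.3 FPKM in WT. Of 6 tested 0 were called, at a median log2 change of 1.10. While 4 of them were higher in both mutants than in every control, against 13.2% of all genes tested, 2 lay below 0. These were Msln and Krt7, at log2 changes of -0.56 and -0.06. No marker found of these lists was at 0 in every library, and the part of these tissues in the collagen values was not tested.

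Other fibril-associated collagens did not pass. Col14a1, which binds fibrils and limits their growth, was at 36.2 and 31.9 FPKM in MU against 31.4, 23.7 and 32.0 FPKM in WT, the only tested member of its subclass above 0, at a log2 change of 0.23 (SE 0.15). Col16a1 was at 31.2 and 21.4 FPKM in MU against 33.3, 29.4 and 40.7 FPKM in WT, with overlap (log2 change -0.39, SE 0.19). Col20a1 was low, at 1.92 and 1.10 FPKM in MU against 2.25, 2.74 and 2.62 FPKM in WT, without overlap (log2 change -0.51, SE 0.19, limma adjusted p = 0.199). Col22a1, a collagen of the junction between muscle and tendon, and Col19a1 were not tested. They had 121 and 25 reads in MU against 304 and 94 in WT, and for both the mutants lay below all controls.

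Type VI collagen builds beaded microfibrils around cells, from the chains Col6a1, Col6a2 and Col6a3 or a chain that can take the place of Col6a3. All 4 tested genes of this subclass had log2 changes below 0, from -0.51 to -0.27, and 0 passed. Col6a1 was at 105 and 74.0 FPKM in MU against 126, 97.1 and 135 FPKM in WT, so that MU 1 lay above WT 2 (log2 change -0.42, SE 0.19, limma adjusted p = 0.294). Col6a2 was at 73.2 and 50 FPKM in MU against 71.8, 64.6 and 84.7 FPKM in WT, also with overlap (log2 change -0.27, SE 0.18, limma adjusted p = 0.491). Col6a3 was at 25.6 and 18.8 FPKM in MU against 38.0, 25.5 and 32.7 FPKM in WT, where MU 1 and WT 2 coincided (log2 change -0.51, SE 0.19, limma adjusted p = 0.209). For these 3 chains MU 2 was the lowest library and MU 1 lay within the range of the controls. Col6a6 was at 7.24 FPKM in each mutant against 8.70, 8.38 and 12.5 FPKM in WT, without overlap (log2 change -0.38, SE 0.17, limma adjusted p = 0.293). Col6a5, Col6a4 and Col28a1 were low, at 75, 55 and 19 reads in MU against 128, 93 and 63 in WT, and were not tested.

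Transmembrane collagens went different ways and 0 of 4 passed. Col13a1, which is found at cell adhesions and at the nerve-muscle junction, was at 20.1 and 15.0 FPKM in MU against 12.3, 12.7 and 14.8 FPKM in WT, without overlap (log2 change 0.37, SE 0.15, limma adjusted p = 0.239). MU 2 cleared WT 3 only narrowly. Col25a1, known from neurons and from muscle that receives motor nerves, was at 3 and 2.21 FPKM in MU against 3.72, 3.88 and 4.31 FPKM in WT, without overlap (log2 change -0.47, SE 0.15, limma adjusted p = 0.151). Col23a1 and Col17a1, a collagen that ties basal epithelial cells to the basement membrane, had log2 changes of 0.04 (SE 0.18) and -0.02 (SE 0.18).

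Col26a1, which fits none of these subclasses, was at 27.5 and 17.5 FPKM in MU against 24.0, 27.7 and 33.8 FPKM in WT, with overlap (log2 change -0.35, SE 0.21). Col10a1, the collagen of hypertrophic cartilage, had 7 and 4 reads in MU against 3, 1 and 0 reads in WT, too few to compare.

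The classes can also be set side by side as sums. Summed fibrillar FPKM came to 1582 and 1316 in MU against 1704, 1668 and 2192 in WT, and summed type IV FPKM to 167 and 156 in MU against 141, 141 and 147 in WT. The ratio of the sums was 9.45 and 8.45 in MU against 12.1, 11.8 and 14.9 in WT, without overlap. This ratio is free of the scaling of a library, but it was put together with the values of these genes in view and was not tested. The other collagens summed to 452 and 341 FPKM in MU against 463, 419 and 518 FPKM in WT, with a median log2 change of -0.38 over the 17 tested, which was -0.63 without MU 1 and -0.13 without MU 2.

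**Figure D3:**
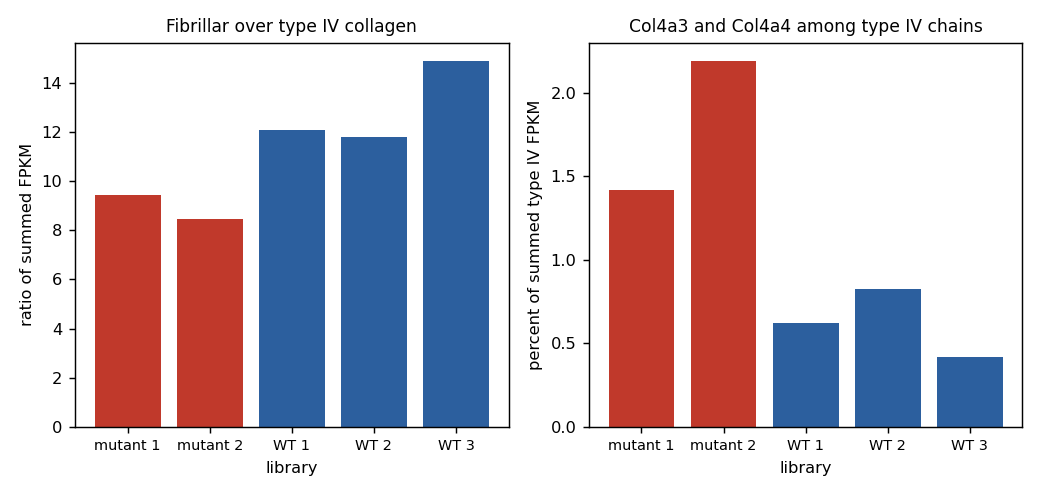
Left, the ratio of summed fibrillar to summed type IV FPKM, and right, the percent of summed type IV FPKM from Col4a3 and Col4a4, in each Prmt5 mutant (red) and WT (blue) library, 1 bar per library with no error. The ratio is 9.45 and 8.45 in the mutants and 11.8 to 14.9 in WT, and the share 1.42% and 2.19% in the mutants and 0.418% to 0.824% in WT.

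Ratios between chains of 1 molecule were close in the 2 groups. The ratio of Col1a1 to Col1a2 FPKM was 2.83 and 2.74 in MU against 2.67, 2.75 and 2.66 in WT, and that of Col4a1 to Col4a2 was 1.55 and 1.61 in MU against 1.59, 1.70 and 1.51 in WT, both with overlap. The ratio of Col3a1 to Col1a1, which belong to different molecules of mixed fibrils, also overlapped, at 0.518 and 0.548 in MU against 0.537, 0.486 and 0.503 in WT. Col5a1 to Col5a2 was 1.32 and 1.27 in MU against 1.35, 1.55 and 1.44 in WT, and Col6a1 to Col6a2 was 1.43 and 1.48 in MU against 1.75, 1.5 and 1.60 in WT, both without overlap and 10.4% and 10.0% lower in the means. By the exact permutation test of each ratio, two-sided, p ranged from 0.2 to 0.9 and was 0.5 to 0.9 adjusted over the 5 ratios. With 10 splits of 5 libraries the smallest p is 0.1, so no ratio could pass, and each ratio also depends on the gene lengths the authors used.

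The cartilage collagens, left out above, differed more. All 6 lay lower in both mutants than in every control, against 24.4% of all genes tested. Of the 6, 4 were called lower, against 2 of the 29 collagens tested outside cartilage and 1.37% of all genes. Their median log2 change was -1.12, against -0.27 for the 29. Summed, they came to 68.6 and 44.9 FPKM in MU against 141, 112 and 114 FPKM in WT. Whether the sets differ was not tested. Of the cartilage markers, the 2 tested, Hapln1 and Sox9, had log2 changes of 0.12 and 0.23 and were not called. The 4 too low to be tested, Acan, Matn1, Matn3 and Comp, had lower means in MU. Summed, the 6 markers found came to 31.7 and 29.9 FPKM in MU against 26.6, 32.5 and 25.5 FPKM in WT. Most of each sum was Sox9, at 25.5 and 23.2 FPKM in MU against 17.3, 26.4 and 19.1 FPKM in WT. The sum therefore follows Sox9 and does not measure the amount of cartilage, which was not tested.

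Genes that make, process, bind, degrade or sense collagen mostly did not pass. Of 68 symbols listed, 67 were found, 61 tested and 1 called, Fap, which fell in MU. The median log2 change was -0.17. That is 1.64% called, against 2.36% of all genes tested. The groups did not overlap for 25 of the 61 (41%), against 37.6% of all genes tested, so that both totals were near those of all genes. By direction, 21 of the 61 were lower without overlap (34.4%, against 24.4% of all genes). Only 4 of the 61 were higher without overlap, against 13.2% of all genes. Log2 changes lay below 0 for 75.4% of the 61, against 61.1% of all genes.

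Enzymes and chaperones that act on the chains inside the cell numbered 18 tested, 0 called, with a median log2 change of -0.14. Nearest to the threshold was P4ha3, a subunit of the prolyl hydroxylase that stabilizes the triple helix, at 7.11 and 6.87 FPKM in MU against 13.9, 9.96 and 12.6 FPKM in WT (log2 change -0.71, SE 0.15, limma adjusted p = 0.0584). It passed with voom (adjusted p = 0.0391) and without WT 2 (0.0384), in a range of 0.0384 to 0.353 over 13 alternatives. P3h2, which hydroxylates type IV chains among others, was at 4.61 and 4.02 FPKM in MU against 6.95, 6.31 and 6.61 FPKM in WT (log2 change -0.52, SE 0.12, limma adjusted p = 0.0709). P4ha2, another prolyl hydroxylase subunit, had a log2 change of -0.42 (SE 0.15). Both mutants lay below all controls for these 3 genes.

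Outside the cell, 12 genes of trimming and crosslinking were tested and 0 called, with a median of -0.08. Adamts3, a protease that can trim procollagen, was at 3.24 and 3.07 FPKM in MU against 1.52, 1.71 and 1.56 FPKM in WT, 1.98 times as high in the means (log2 change 0.68, SE 0.14, limma adjusted p = 0.0572). It passed with median ratio scaling (adjusted p = 0.0419), with quantile normalization (0.0382) and with voom (0.0181), in a range of 0.0181 to 0.36 over 13 alternatives. Loxl1, a crosslinking enzyme of elastic fibres, was at 25.7 and 18.2 FPKM in MU against 31.4, 35.7 and 40.8 FPKM in WT (log2 change -0.70, SE 0.17, limma adjusted p = 0.0839). It passed with voom (adjusted p = 0.0431, in a range of 0.0431 to 0.52). Lox, the crosslinking enzyme of collagen fibrils, had a log2 change of -0.32 (SE 0.14).

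Of 12 matrix partners 0 were called, with a median of -0.31. Postn, which encodes periostin, was at 37.9 and 37.2 FPKM in MU against 70.8, 50.3 and 64.8 FPKM in WT (log2 change -0.69, SE 0.15, limma adjusted p = 0.0662). It passed with voom (adjusted p = 0.0329) and without WT 2 (0.0335), in a range of 0.0329 to 0.379. The small proteoglycan genes Ogn and Bgn had log2 changes of -0.58 (SE 0.13) and -0.50 (SE 0.12) (limma adjusted p = 0.0673 and 0.0732), with both mutants below all controls. Ogn passed with voom (adjusted p = 0.0382, in a range of 0.0382 to 0.346).

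Of 12 genes of degradation, Fap was called. It encodes a membrane protease of fibroblasts that cuts partly degraded collagen, and was at 3.24 and 2.61 FPKM in MU against 6.85, 6.37 and 8.38 FPKM in WT (log2 change -1.06, SE 0.15, limma adjusted p = 0.0195). The call was lost without MU 1 or MU 2 (adjusted p = 0.0922 and 0.175), with all genes tested (0.094) and with the male covariate (0.168). Ctsk, a protease that digests collagen, and Mmp16, a membrane metalloproteinase, had log2 changes of -0.66 (SE 0.15) and -0.56 (SE 0.16) (limma adjusted p = 0.0736 and 0.116).

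Of 7 receptor genes tested 0 were called. Itga2, an integrin subunit that binds collagen, was at 8.21 and 6.29 FPKM in MU against 5.11, 4.58 and 4.98 FPKM in WT (log2 change 0.48, SE 0.14, limma adjusted p = 0.124). Adgrg1, a receptor for type III collagen, was at 7.83 and 6.05 FPKM in MU against 14.2, 12.6 and 8.55 FPKM in WT (log2 change -0.67, SE 0.21, limma adjusted p = 0.148). Adgrg1 passed in 2 of 13 alternatives, without WT 3, the control nearest the mutants (limma adjusted p = 0.0487), and with the replicate block (0.0478). With no filter on low values its adjusted p was 0.293. Itga1, another integrin subunit that binds collagen, had a log2 change of -0.27 (SE 0.11).

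**Figure D4:**
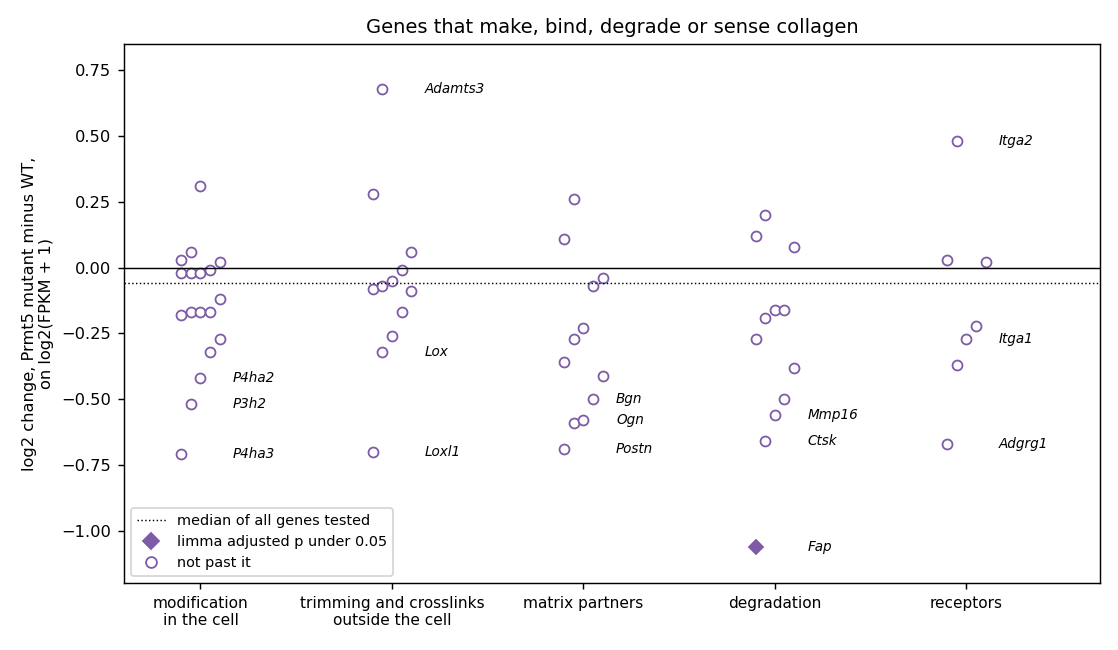
Log2 change (Prmt5 mutant minus WT, on log2(FPKM + 1)) of the 61 genes tested in 5 lists of collagen processing, partners, degradation and receptors, 1 symbol per gene, with the named genes labelled. The 1 filled diamond, Fap at -1.06, passed a limma adjusted p of 0.05.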

How the data were processed

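Libraries for 5 samples were built with the SMARTER mRNA-Seq kit, per the labels' protocols. The labels' treatment text describes fat cell culture and was not used. The authors deposited 1 table of FPKM values, as its name says. The genome build is GRCm38 (mm10), per the submitters' processing notes. How reads were aligned, counted and assigned to strands is not given in the sources used here. Samples were grouped by title.

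Whole reads were worked out from the steps of the FPKM values. All 19699 entries came out whole. For 13965 of them, 73.9% of genes with 1 symbol match, this held within a tolerance of 1e-09 at the summed exon length of GENCODE M21 (GRCm38). For the other 5734 the smallest whole numbers were taken, within a looser tolerance, so their reads are known only up to a factor. Col4a1, Col6a5, Col8a1, Col17a1, Col20a1 and Col28a1 are among these. Of the reads, 97.5% to 97.6% lay in listed genes. Positions are from the same annotation.

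The test was limma 3.58.1 in R 4.3.3 (lmFit, eBayes with trend, two-sided) on log2(FPKM + 1), all 5 libraries, no covariate, for genes that reached 1 FPKM in 2 libraries. The alternatives were a pseudocount of 0.1, no filter, median ratio scaling, quantile normalization, TPM without the very short RNA gene Gm23935 (7.69% to 64.8% of summed FPKM), voom, the male share (4 Y-linked genes summed, relative to the highest library), the replicate number as a block and leaving out each library.

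The members, classes and lists were chosen with earlier results of these data known. Given in full by rule are members past the threshold, the 3 of highest level in each class and the chains of the ratios. Other members' full values were chosen after their values were seen. Of the pathway lists, genes past the threshold and the 3 of smallest p in each are named.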

Additional observations from a re-analysis of the deposited data

How the results depend on the processing

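The direction of Col12a1, Col8a2 and Fap was the same in all 13 alternatives. The collagens called numbered 2 with a pseudocount of 0.1, median ratio scaling, quantile normalization and TPM without Gm23935, but 0 with no filter, 0 with the male share as a covariate and 4 with voom (4.7% of all genes), of which Col4a4 and Col8a1 reached the minimum in 1 group only. Leaving out 1 library gave 0 to 2, with 0 without MU 1 or MU 2, where the lone mutant is assumed to vary like the controls. With the replicate block 1 was called, Col12a1 (adjusted p = 0.0466), while Col8a2 missed (0.0692). The labels do not pair libraries by replicate number, and the deviations of same-numbered libraries correlated at -0.0671 and 0.0203. Whether same-numbered libraries share a litter or a batch is not stated, and these values do not settle it. The pathway genes called numbered 0 with no filter, 0 with the male share, 2 with median ratio scaling, 2 with quantile normalization, 2 with the block (Fap and Adgrg1) and 6 with voom, and 0 to 3 with 1 library left out. Over all genes 303 were called, 69 with no filter, 55 with the male share, 603 with voom, 259 with the block, 21 without MU 1 and 12 without MU 2. The fibrillar median log2 change was -0.12 with the male share, and -0.41 to -0.16 with 1 library left out. The basement membrane median was 0.29 with median ratio scaling and 0.14 with TPM without Gm23935, and -0.04 to 0.22 with 1 library left out, where Col4a4 no longer reached the minimum without either mutant. The median of the other collagens was -0.63 to -0.13 with 1 library left out. The log2 ratio of MU to WT for Col4a1 over Col4a2 was -0.02, but 0.01 without MU 1 and 0.03 without WT 2, in a range of -0.06 to 0.03 with 1 library left out. The causes were not tested. Depth limited Col10a1, Col28a1, Col19a1 and Col6a4, at 4 to 94 reads in a group.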
